A study of Mus musculus with 6 samples.

Results

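Emp1, Emp2, Emp3 and Pmp22 encode the closely related membrane proteins of the PMP22 family, and they were taken from the table by gene symbol, as 4 of the 18437 genes listed. All 4 were found. The family was picked because Emp1 was known to be among the largest falls in LIGHT tumours, so the levels below are a description of the members and carry no test. The tumours grew in the tongues of C57BL/6 mice after injection of 4MOSC1 cells, which derive from murine oral cancer. In 3 LIGHT tumours the injected cells overexpressed LIGHT, a TNF superfamily ligand encoded by Tnfsf14, and in 3 control tumours they were 4MOSC1-con cells. The labels give neither the age of the mice nor the promoter that drives LIGHT, and they do not say whether the overexpressing line is a clone. Each value is a TPM, a length-corrected share of all transcripts in a bulk tumour specimen, so that levels of different genes can be compared.

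The PMP22 family belongs to the same superfamily of multi-pass membrane proteins as the claudins, which seal tight junctions. Pmp22 itself is a major protein of compact myelin in peripheral nerves, its dosage is tightly constrained in Schwann cells, and the gene was also cloned from growth-arrested fibroblasts under the name Gas3. The epithelial membrane proteins share its topology and are found in many epithelia. Emp1 is induced in squamous differentiation and in several tumours, Emp2 controls the surface display of integrins and caveolins in epithelial cells, and Emp3 is widely expressed in mesenchymal cells and leukocytes.

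The members share only short exact runs of bases. Between the coding sequences of Emp1 and the others, 69.9% of aligned bases were identical for Emp2, 65.6% for Emp3 and 60.3% for Pmp22. The longest exact run that Emp1 shared with another member was 14 bases, with Emp2, and the longest run shared by any pair was 22 bases, between Emp2 and Pmp22. The coding sequences hold 160, 172, 163 and 160 codons before the stop for Emp1, Emp2, Emp3 and Pmp22. The aligned windows of 46 bases around that 22-base run show how the members differ there, from the GENCODE transcripts on GRCm38. Capitals mark the bases that differ from Emp1, which number 14 in Emp2, 22 in Emp3 and 21 in Pmp22, and the windows start at coding bases 399, 432, 405 and 396.
Emp1: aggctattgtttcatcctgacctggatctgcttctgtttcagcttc
Emp2: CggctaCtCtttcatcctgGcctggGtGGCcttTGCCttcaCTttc
Emp3: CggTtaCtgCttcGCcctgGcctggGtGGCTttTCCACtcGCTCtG
Pmp22: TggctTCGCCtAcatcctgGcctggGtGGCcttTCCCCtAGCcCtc

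Emp1 was the most abundant member in all 6 libraries and the only one that was lower in LIGHT tumours on average. It stood at 431, 315 and 338 TPM in the LIGHT tumours, against 1405, 1540 and 1607 TPM in the control tumours. Every LIGHT library lay below every control library, and the gap between the groups was wider than the whole range within either. The means were 361 ± 61.2 TPM in LIGHT and 1517 ± 103 TPM in control tumours (SD, n = 3 each), a LIGHT level of 0.238 times the control level. On the log2(TPM + 1) scale used for all differences below, LIGHT minus control was -2.08 (SE 0.13). The gene ranked 319, 430 and 397 by abundance among the 18437 genes in the LIGHT libraries and 130, 119 and 111 in the control libraries. Its difference was the ninth lowest of the 13167 genes tested, and the fifth lowest of the 1181 tested genes with a control mean of 100 TPM or more, a level chosen after the values were seen. In absolute terms Emp1 fell by 1156 TPM. This was 1.17% of the summed falls in mean TPM over all listed genes that were lower in LIGHT tumours.

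Emp2, Emp3 and Pmp22 showed no such fall. Emp2 had 218, 170 and 190 TPM in LIGHT tumours and 176, 175 and 173 TPM in control tumours. The Emp2 groups overlapped, since the second LIGHT library lay below all control libraries, and the difference was 0.13 (SE 0.10). It was 0.04 without LIGHT replicate 1, 0.22 without LIGHT replicate 2, 0.26 with skeletal muscle markers as a covariate and 0.01 after trimmed-mean scaling. Emp3 stood at 226, 232 and 198 TPM in LIGHT and 185, 151 and 142 TPM in control tumours. The Emp3 groups did not overlap, with LIGHT above control, and the means were 219 ± 18.1 TPM in LIGHT and 159 ± 22.3 TPM in control tumours (SD, n = 3 each), a difference of 0.46 (SE 0.12), or 0.26 (SE 0.15) with skeletal muscle markers as a covariate. Pmp22 was the scarcest member, at 16.4, 15.6 and 20.1 TPM in LIGHT and 22.3, 13.5 and 12.4 TPM in control tumours. Its groups overlapped, because the first control library held the highest value of all, and the difference was 0.14 (SE 0.21). Without control replicate 3 the Pmp22 difference was -0.01, without control replicate 1 it was 0.39, and with skeletal muscle markers as a covariate it was -0.21, so its direction is not settled. The groups did not overlap for 2 of the 4 members, Emp1 and Emp3, against 41.2% of all tested genes, 11.6% with LIGHT lower and 29.6% with LIGHT higher. These shares are given for scale only, since the family was chosen on this contrast.

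**Figure D1:**
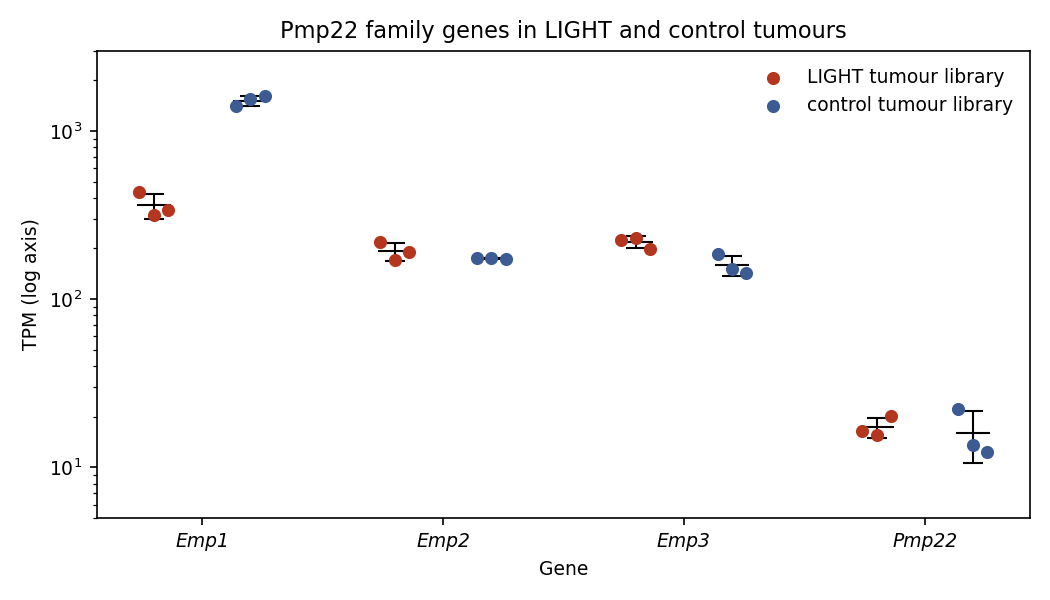
TPM of the PMP22 family genes on a log axis, with 1 point per library and black bars for mean ± SD (n = 3 per group). Emp1 separates the groups widely, at 361 TPM in LIGHT and 1517 TPM in control tumours on average, while the Emp2 and Pmp22 groups overlap and Emp3 is modestly higher in LIGHT tumours.

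The make-up of the family's transcripts differed between the groups. Emp1 supplied 48.4%, 43.0% and 45.3% of the summed TPM of the family in the LIGHT libraries, against 78.6%, 81.9% and 83.1% in the control libraries. The mean share was 45.6% ± 2.68 in LIGHT and 81.2% ± 2.34 in control tumours (SD, n = 3 each). A share within a library does not depend on how libraries are scaled to one another. Summed over the family, LIGHT tumours held 790 ± 87.6 TPM and control tumours 1867 ± 74.4 TPM, whereas Emp2, Emp3 and Pmp22 together held 429 ± 27.7 TPM in LIGHT and 350 ± 29.2 TPM in control tumours. Emp1 exceeded Emp2 between 1.78 and 1.98 times in the LIGHT libraries and between 7.98 and 9.31 times in the control libraries. In all 3 LIGHT libraries and in the first control library Emp3 stood above Emp2, and in the other control libraries it stood below. Emp2 and Emp3 overlapped in range within each group, so neither is set above the other by more than its spread. Pmp22 came last in every library, at least 16.8 times below Emp1.

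**Figure D2:**
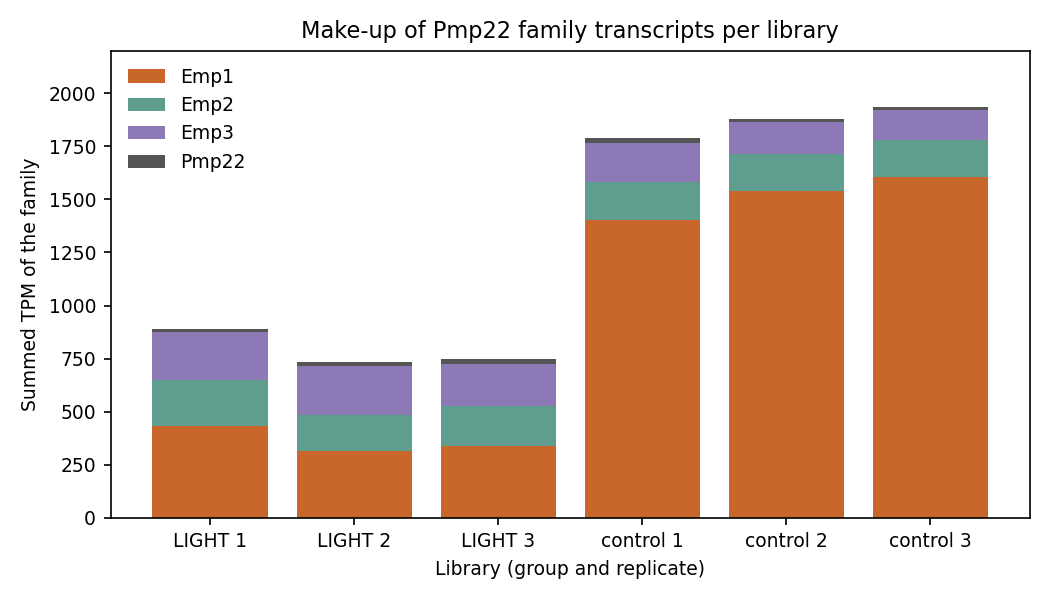
Stacked TPM of Emp1, Emp2, Emp3 and Pmp22 in each library, with LIGHT libraries left of control libraries. The bars reach 733 to 891 TPM in LIGHT and 1787 to 1935 TPM in control tumours, and the Emp1 segment is shorter in every LIGHT bar than in every control bar.

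Cell content also differed between the specimens. In bulk tissue, fewer cells of a type and less RNA per cell cannot be told apart. Summed TPM of 10 basal keratinocyte markers, among them Krt5, Krt14 and Trp63, ranged from 12062 to 15859 in LIGHT and from 16005 to 18715 in control tumours, and 0 of the 10 passed the limma test at an adjusted p under 0.05, with 2 lower and 0 higher at an unadjusted p under 0.05. Of 12 suprabasal and cornifying markers 1 was higher and 5 were lower in LIGHT tumours, where 17.7% of all 13167 tested genes were called higher and 5.41% lower, with sums of 42055 to 52627 TPM in LIGHT and 52920 to 71810 TPM in control tumours. Per 1000 TPM of the basal markers, Emp1 amounted to 27.2, 26.1 and 21.9 TPM in LIGHT and 75.0, 94.1 and 100.4 TPM in control tumours. Per 1000 TPM of the suprabasal markers it amounted to 10.2, 6.77 and 6.43 TPM in LIGHT and 25.0, 29.1 and 22.4 TPM in control tumours. The Emp1 groups thus stayed apart relative to the sum of either keratinocyte list. The suprabasal list was mixed, with Krt4 higher by 0.95 and 6 markers not called by limma. The markers called lower were Sprr1b (-1.63), Sprr1a (-1.48), Cnfn (-0.83), Krt6a (-0.62) and Krtdap (-0.52). Emp1 was not compared with these single markers. With the mean of the basal markers as a covariate the Emp1 difference was -2.05 (SE 0.15), and with skeletal muscle markers, whose sums were 4326 to 7017 TPM in LIGHT and 2841 to 4984 TPM in control tumours, it was -1.83 (SE 0.15).

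Markers of cells that commonly express Emp3 were also compared, for which the share of all tested genes called higher was 17.7%. The 10 macrophage markers summed to 1364 to 1847 TPM in LIGHT and 802 to 900 TPM in control tumours, and 5 of them were higher. The 9 T cell markers found summed to 252 to 304 TPM in LIGHT and 66.9 to 163 TPM in control tumours, and 8 of them were higher. The 10 fibroblast markers summed to 629 to 808 TPM in LIGHT and 429 to 588 TPM in control tumours, and 1 was higher. That gene was Thy1, which T cells of mice also express. The other 9, grouped after the values were seen, summed to 458 to 646 TPM in LIGHT and 371 to 525 TPM in control tumours, which overlapped. No marker of these lists was at 0 throughout. Their part in the Emp3 values was not tested. The second LIGHT library stood apart in blood content, where 5 red blood cell genes summed to 2086 TPM. The sums were 119 and 896 TPM in the other LIGHT and 70.0 to 453 TPM in the control libraries. The 10 neutrophil markers summed to 443 TPM in the second LIGHT library, against 2974 and 2242 TPM in the other LIGHT libraries. The control libraries held 1392 to 1795 TPM of them. This low sum followed S100a8 and S100a9, at 105 and 253 TPM there, and not the list as a whole. Retnlg was highest in the second LIGHT library, at 33.7 TPM, and Csf3r and Il1r2 lay within the range of the other libraries. Without the second LIGHT library the differences were -1.99 for Emp1, 0.22 for Emp2, 0.42 for Emp3 and 0.21 for Pmp22. Tnfsf14, the overexpressed gene, read 23.9 to 26.2 TPM in LIGHT and 0.53 to 0.79 TPM in control tumours.

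The RefSeq promoter table (GRCm38.p6) holds 250 bases before 2 starts of Emp1, 1 of Emp2, 2 of Emp3 and 4 of Pmp22. Neither Emp1 window is that of the first start of the gene: the window at chr6:135362681-135362930 precedes a start that lies 381 bases after it, and the bases before the first start were not analysed here. Sequence is shown for the members whose groups did not overlap, 1 start each, with AP-1 letters (TGANTCA) and TATA box letters (TATAAA), searched on both strands, in capitals. The Emp1 stretch, chr6:135362708-135362903 on the plus strand, is the part of that window between the first 2 exons of the longest GENCODE transcript, and the Emp3 window is chr7:45921427-45921676 on the minus strand.
Emp1: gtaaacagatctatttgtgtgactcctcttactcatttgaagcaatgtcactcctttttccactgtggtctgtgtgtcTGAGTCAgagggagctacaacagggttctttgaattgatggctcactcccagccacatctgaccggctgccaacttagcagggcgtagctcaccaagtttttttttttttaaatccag
Emp3: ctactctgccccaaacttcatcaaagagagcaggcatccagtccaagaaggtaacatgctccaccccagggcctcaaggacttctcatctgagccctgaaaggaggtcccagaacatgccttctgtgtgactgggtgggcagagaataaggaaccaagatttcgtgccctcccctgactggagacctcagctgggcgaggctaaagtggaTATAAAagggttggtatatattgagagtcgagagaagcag
The window of 250 bases holds 2 AP-1 matches, whose first bases lie 145 and 25 bases before that internal start. The first of these is in the stretch shown and the other in the second exon. None of the other 8 windows searched held one. Across 32851 promoter windows of the same length 6.75% held at least 1 such match and 0.338% held 2 or more. The Emp3 window holds a TATA box match 40 bases before its start, as 12.4% of the windows do. GC box letters (GGGCGG), present in 32.7% of windows, occurred before the Emp2 start and before 2 of the 4 Pmp22 starts, and an NF-kappaB consensus match, present in 7.25% of windows, occurred before the other Emp3 start and 1 Pmp22 start. The motifs do not overlap one another in the windows shown, and a match is a match of letters only.

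The genes beside each member were then compared, taking up to 3 protein-coding genes of the table on each side. Emp1 lies on chromosome 6 from 135362550 to 135383173, Emp2 on chromosome 16 from 10281749 to 10313968, Emp3 on chromosome 7 from 45918023 to 45921426 and Pmp22 on chromosome 11 from 63128982 to 63159547 (GRCm38.p6). The nearest such gene before Emp1, Pbp2, a phosphatidylethanolamine-binding protein gene known from the testis, fell in LIGHT tumours. Pbp2 read 7.21, 5.35 and 5.09 TPM in LIGHT and 19.4, 23.1 and 23.2 TPM in control tumours, with no overlap. Its difference was -1.74 (SE 0.14, limma adjusted p = 0.000748), and it passed the test in all 18 other settings tried. Pbp2 ends 52166 bases before the RefSeq start of Emp1 and is annotated on the opposite strand. Its widely expressed paralog Pebp1, looked at after the values of Pbp2 were seen, stood at 178, 168 and 186 TPM in LIGHT and 155, 172 and 143 TPM in control tumours (limma adjusted p = 0.196), and the transcripts share no exact run longer than 21 bases.

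The neighbours were called as often as tested genes in general. Of the 24 neighbouring genes 13 were tested, and 2 were higher and 1 lower, or 23.1%, against 23.1% of all tested genes called in either direction. The median difference of the 13 was 0.14, against 0.09 for all tested genes. Fam234b, the third gene before Emp1, rose to 3.42 ± 0.15 TPM in LIGHT, against 2.24 ± 0.30 TPM in control tumours (SD, n = 3 each; limma adjusted p = 0.0283), and Gsg1, between Fam234b and Pbp2, was under 1 TPM in every library. The genes after Emp1 include Grin2b, a glutamate receptor subunit of neurons, which did not exceed 0.01 TPM. Hs3st3b1, a heparan sulfate sulfotransferase gene after Pmp22, rose to 2.11 ± 0.23 TPM in LIGHT, against 1.10 ± 0.17 TPM in control tumours (limma adjusted p = 0.0169). Kdelr1, Tmem143 and Nubp1, beside Emp3 and Emp2, did not pass (limma adjusted p = 0.184, 0.106 and 0.676). The count was 1, Pbp2, without LIGHT replicate 3, and Fam234b was also lost without control replicate 1 or 3 or LIGHT replicate 2 (limma adjusted p from 0.0692 to 0.108) and Hs3st3b1 without control replicate 2 or LIGHT replicate 3 (0.0570 to 0.0734). With the skeletal muscle or red blood cell covariate, and after quantile scaling, only Pbp2 passed. Fam234b was also not called after trimmed-mean scaling or with the basal keratinocyte covariate.

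**Figure D3:**
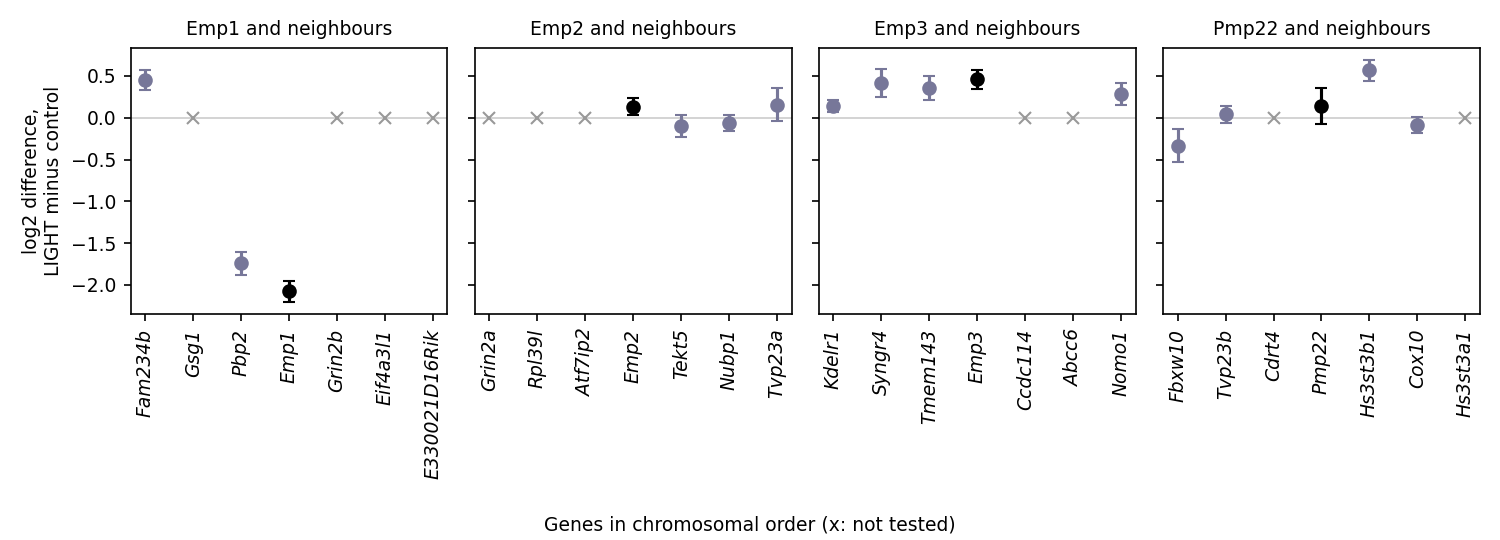
Log2 difference, LIGHT minus control, of each family member (black) and its neighbouring genes (grey) in chromosomal order, with bars for the SE of the fit, and crosses for genes too low to test. Emp1 at -2.08 and Pbp2 at -1.74 stand far below the other genes shown.

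Pbp2 also headed the genes whose profile was most like that of Emp1. Likeness was measured as the root mean square difference between log2(TPM + 1) values centred on each gene's mean over the 6 libraries, among 7797 genes with a mean of at least 10 TPM, and since it mostly follows the group difference it is a description only. After Pbp2 (0.18) came Dhrs9 (0.19), a retinol dehydrogenase gene, Elf5 (0.21), an epithelial ETS transcription factor, Oit1 (0.23), Defb14 (0.25), a beta-defensin, S100a7a (0.27), Abcg1 (0.28), a cholesterol transporter, Psca (0.29), a surface antigen of prostate and other epithelia, Tspan1 (0.30), a tetraspanin, and Aldh1a3 (0.31), a retinaldehyde dehydrogenase. Psca, the most abundant of these, stood at 1073, 1184 and 867 TPM in LIGHT and 2759, 4446 and 5122 TPM in control tumours. Elf5 stood at 8.40, 9.44 and 9.85 TPM in LIGHT and 34.7, 40.6 and 38.1 TPM in control tumours. None of the 10 had overlapping groups, and all 10 were lower in LIGHT tumours, as the choice by likeness sets.

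**Figure D4:**
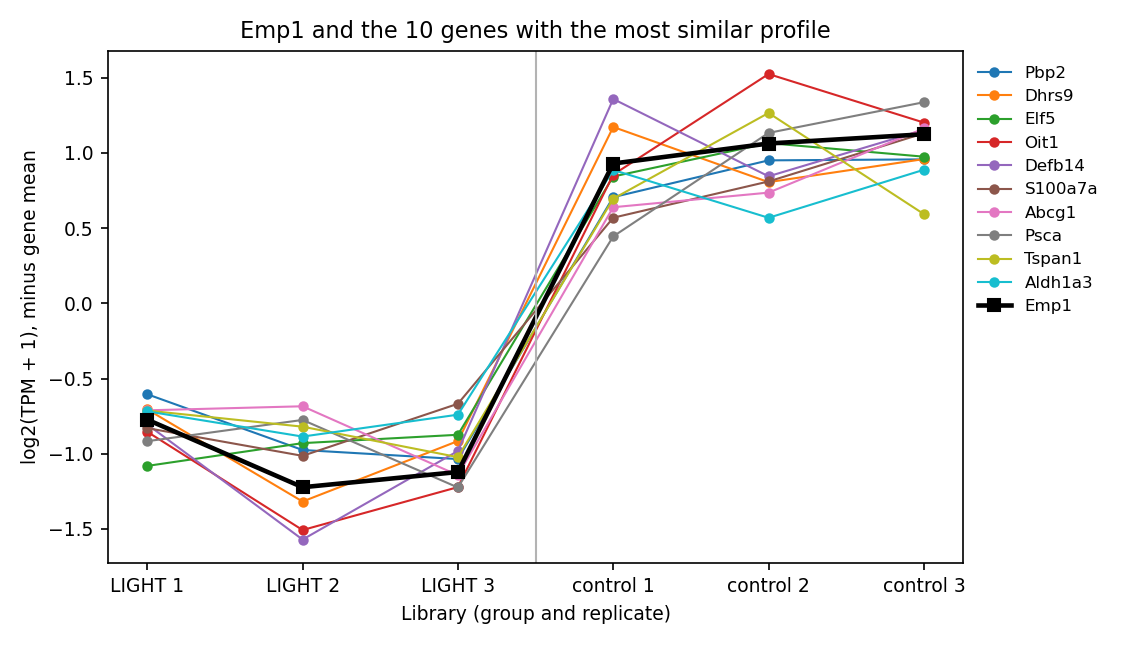
Log2(TPM + 1) minus the gene's mean in each library, for Emp1 (black squares) and the 10 genes with the smallest root mean square difference from it; lines join the values of 1 gene and replicates have no order. All 11 genes lie below their mean in the LIGHT libraries and above it in the control libraries.

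The genes most like the other members followed smaller movements. For Emp2 they were Shf (0.02), Rgp1 (0.02) and Zc3h4 (0.02), none of which differed by more than 0.16 between groups. For Emp3 they were Fhl3 (0.06), a LIM domain gene, Tgfb1 (0.06), the growth factor TGF-beta, and Tcf7 (0.07), a T cell transcription factor. Tgfb1 stood at 82.6, 83.2 and 79.2 TPM in LIGHT and 66.3, 53.5 and 50.6 TPM in control tumours. For Pmp22 they were Tsc22d1 (0.04), Nr4a1 (0.10) and the integrin gene Itgb1 (0.10), which like Pmp22 were highest in the first control library.

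Among more distant relatives in the claudin superfamily, outside the claudins, 4 of 11 tested genes rose in LIGHT tumours and 0 fell by limma (5 higher and 0 lower at an unadjusted p under 0.05), or 36.4% called, against the 17.7% of all tested genes called higher. The median difference was 0.34, against 0.09 for all tested genes. A further 17 of the 28 genes found were too low to test, among them Cacng3, Cacng7 and Cacng8, known from neurons. Perp, a p53 target that holds desmosomes together in stratified epithelia, was as abundant as Emp1 in control tumours but did not pass the test. It read 1557, 1323 and 1677 TPM in LIGHT and 1519, 1386 and 1674 TPM in control tumours, a difference of -0.01 (SE 0.12, limma adjusted p = 0.961). The Perp groups overlapped throughout, whereas those of Emp1 lay far apart.

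Nkg7, a granule membrane protein of cytotoxic lymphocytes, was the relative with the greatest rise. It read 146, 128 and 105 TPM in LIGHT and 25.8, 67.2 and 33.9 TPM in control tumours, a difference of 1.66 (SE 0.31, limma adjusted p = 0.0105), beside T cell markers that moved as given above. Its call was lost with the red blood cell covariate (adjusted p = 0.0698). Tmem182 and Cacng6, both known from skeletal muscle, rose to 18.2 and 3.98 TPM in LIGHT tumours, against 10.8 and 1.85 TPM in control tumours (limma adjusted p = 0.0229 and 0.0289). The sums of the 10 muscle markers, given above, overlapped between the groups. By limma 0 of the 10 passed (4 higher at an unadjusted p under 0.05), where 17.7% of all tested genes were called higher. All 10 were higher on average in LIGHT tumours, with differences from 0.19 to 1.19 and a median of 0.58. Lhfpl1 rose to 10.6 TPM in LIGHT, against 7.12 TPM in control tumours (limma adjusted p = 0.0201). The part of cell content in these values was not tested. The count was 2, 1, 2 and 1 without control replicate 2, control replicate 3, LIGHT replicate 2 and LIGHT replicate 3: Tmem182 and Cacng6 were lost without each of these (adjusted p from 0.0680 to 0.0880) and Lhfpl1 without control replicate 1 or 3 or LIGHT replicate 3 (0.0510 to 0.0811). With the skeletal muscle covariate the count was 2, Nkg7 and Lhfpl1, and Tmem182 and Cacng6 were lost. The count was 0 with the red blood cell covariate (5 at an unadjusted limma p under 0.05). It was 2 with the replicate number as a block and 1 after quantile normalization.

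Of 9 tested claudins 2 fell and 2 rose in LIGHT tumours, or 44.4%, against 23.1% of all tested genes, with a median difference of -0.13. Cldn8, a barrier-forming claudin, fell to 2.19 TPM in LIGHT, against 7.90 TPM in control tumours, with 1.91, 2.27 and 2.39 TPM in the LIGHT and 7.67, 6.74 and 9.29 TPM in the control libraries. The difference was -1.47 (SE 0.14, limma adjusted p = 0.0011), and no LIGHT library came near a control library. Cldn1, the claudin that seals the epidermal barrier, read 35.7, 29.9 and 27.3 TPM in LIGHT and 59.2, 56.0 and 71.0 TPM in control tumours, a difference of -0.98 (SE 0.13, limma adjusted p = 0.00319). Both falls passed in all 18 other settings. Cldn4, by far the most abundant claudin, read 207, 238 and 187 TPM in LIGHT and 264, 248 and 278 TPM in control tumours and did not pass (limma adjusted p = 0.0596), though it passed as lower after trimmed-mean or quantile scaling and without LIGHT replicate 2 (0.0353).

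The rising claudins were low. Cldn5, the endothelial claudin, rose to 6.20 ± 0.94 TPM in LIGHT, against 3.56 ± 0.68 TPM in control tumours (limma adjusted p = 0.0217). The 10 endothelial markers summed to 69.7 to 131 TPM in LIGHT and 45.5 to 84.3 TPM in control tumours. Of these 10, 1 was called higher, where 17.7% of all tested genes were. All 10 were higher on average in LIGHT tumours, with differences from 0.19 to 0.75. Their median was 0.51, against 0.09 for all tested genes, and their part in the Cldn5 values was not tested. Cldn23 rose to 3.79 ± 0.36 TPM in LIGHT, against 2.05 ± 0.39 TPM in control tumours (limma adjusted p = 0.0135). Cldn5 was lost without control replicate 3 or LIGHT replicate 2 or 3 (adjusted p from 0.0627 to 0.0801), Cldn23 without LIGHT replicate 3 (0.0567), and both with the muscle or red blood cell covariate and after quantile normalization.

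Tight junction scaffold genes fell more often than they rose. Of 19 tested genes 5 fell and 1 rose, or 31.6% called, against 23.1% of all tested genes, 5.41% lower and 17.7% higher. The median difference was -0.02. After trimmed-mean or quantile scaling 8 fell and 1 rose. Those scalings called 1848 and 1813 of the 13167 tested genes lower, against 712 as deposited. Tjp1, the ZO-1 scaffold, read 35.7, 24.7 and 29.9 TPM in LIGHT and 49.4, 46.9 and 53.1 TPM in control tumours, a difference of -0.72 (SE 0.13, limma adjusted p = 0.01). Ocln, the strand protein occludin, fell to 5.69 TPM in LIGHT, against 9.82 TPM in control tumours (limma adjusted p = 0.0101), and Magi3, a membrane-associated scaffold, to 6.85 TPM in LIGHT, against 12.8 TPM in control tumours (limma adjusted p = 0.00846). Tjp3, the ZO-3 scaffold, rose to 17.9 TPM in LIGHT, against 11.2 TPM in control tumours (limma adjusted p = 0.00707). Pard6b, a polarity gene outside the rule for named genes, also fell. F11r, the most abundant, read 123 TPM in LIGHT and 120 TPM in control tumours (limma adjusted p = 0.81). Adjusting for skeletal muscle markers left 0 of the 19 past the limma threshold (7 at an unadjusted p under 0.05), and adjusting for red blood cell genes left 3.

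Of 17 reported binding partners and effectors of the family, 1 rose and 2 fell, or 17.6%, against 23.1% of all tested genes, at a median difference of 0.06. P2rx7, an ATP-gated channel that the epithelial membrane proteins bind, rose to 3.87 ± 0.18 TPM in LIGHT, against 2.38 ± 0.42 TPM in control tumours (limma adjusted p = 0.0207). Cav2, a caveolin, fell to 24.0 TPM in LIGHT, against 37.8 TPM in control tumours (limma adjusted p = 0.0196), and Ptk2, the focal adhesion kinase downstream of Emp2 in human cells, to 19.5 TPM in LIGHT, against 29.4 TPM in control tumours (limma adjusted p = 0.0491). The integrins and Cav1 did not pass, nor did the Pmp22 sorting receptor Rer1, at 140 TPM in LIGHT and 146 TPM in control tumours (limma adjusted p = 0.647), or the chaperone Hspa5, at 265 TPM in LIGHT and 281 TPM in control tumours (limma adjusted p = 0.531). Leaving out 1 library often removed these calls. By limma 0 passed without LIGHT replicate 2 or 3 (5 and 4 at an unadjusted p under 0.05) and 1 without control replicate 2. Over all tested genes 1896, 1459 and 1944 were then called, against 3037 with all 6 libraries. Ptk2 was lost without any 1 of the 6 (limma adjusted p from 0.0537 to 0.134). P2rx7 was lost without LIGHT replicate 2 or 3 or control replicate 1 or 2 (0.0534 to 0.0813), and Cav2 without LIGHT replicate 2 or 3 (0.0604 to 0.0613). Each of these genes kept the sign of its difference in every setting that tested it. With the skeletal muscle or red blood cell covariate 0 passed (3 and 4 at an unadjusted p under 0.05), and with the basal keratinocyte covariate 6.

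Pmp22 was also viewed beside peripheral nerve and growth arrest genes. Of 10 tested Schwann cell and myelin genes 2 rose and 2 fell, or 40%, against 23.1% of all tested genes, and 10 more were too low to test. Cnp, a myelin phosphodiesterase that is also interferon-inducible, rose to 15.7 ± 0.23 TPM in LIGHT, against 5.61 ± 0.86 TPM in control tumours (limma adjusted p = 0.00085). Erbb3, the neuregulin receptor, which epithelia also express, fell to 16.1 TPM in LIGHT, against 24.0 TPM in control tumours (limma adjusted p = 0.0111), and Pllp, plasmolipin, to 1.37 TPM in LIGHT, against 2.98 TPM in control tumours (limma adjusted p = 0.0141). Without LIGHT replicate 3, 2 genes passed, and Pllp was not among them (adjusted p = 0.0551). With the skeletal muscle or red blood cell covariate only Cnp passed.

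Of 12 other growth arrest and quiescence genes 2 rose and 1 fell, or 25%, against 23.1% of all tested genes, and the median difference was -0.04. Gas6, a ligand of TAM receptors, read 49.0, 64.2 and 68.8 TPM in LIGHT and 33.1, 38.4 and 36.6 TPM in control tumours, a difference of 0.72 (SE 0.13, limma adjusted p = 0.0101). Btg1, an antiproliferative gene of quiescent lymphocytes, rose to 89.6 ± 3.08 TPM in LIGHT, against 63.1 ± 3.17 TPM in control tumours (limma adjusted p = 0.00533). Gas2, a cytoskeletal gene, fell to 3.22 TPM in LIGHT, against 5.03 TPM in control tumours (limma adjusted p = 0.0364). Cdkn1b, an inhibitor of cell cycle kinases, read 51.7 TPM in LIGHT and 52.6 TPM in control tumours (limma adjusted p = 0.899), and Cdkn1c, another such inhibitor, read 2.92 TPM in LIGHT and 1.08 TPM in control tumours (limma adjusted p = 0.104), passing without LIGHT replicate 1 (0.0311). Gas2 was lost without any 1 library except LIGHT replicate 1 (adjusted p from 0.0714 to 0.126), and adjusting for skeletal muscle markers left 0 of the 12 past the limma threshold (2 at an unadjusted p under 0.05).

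**Figure D5:**
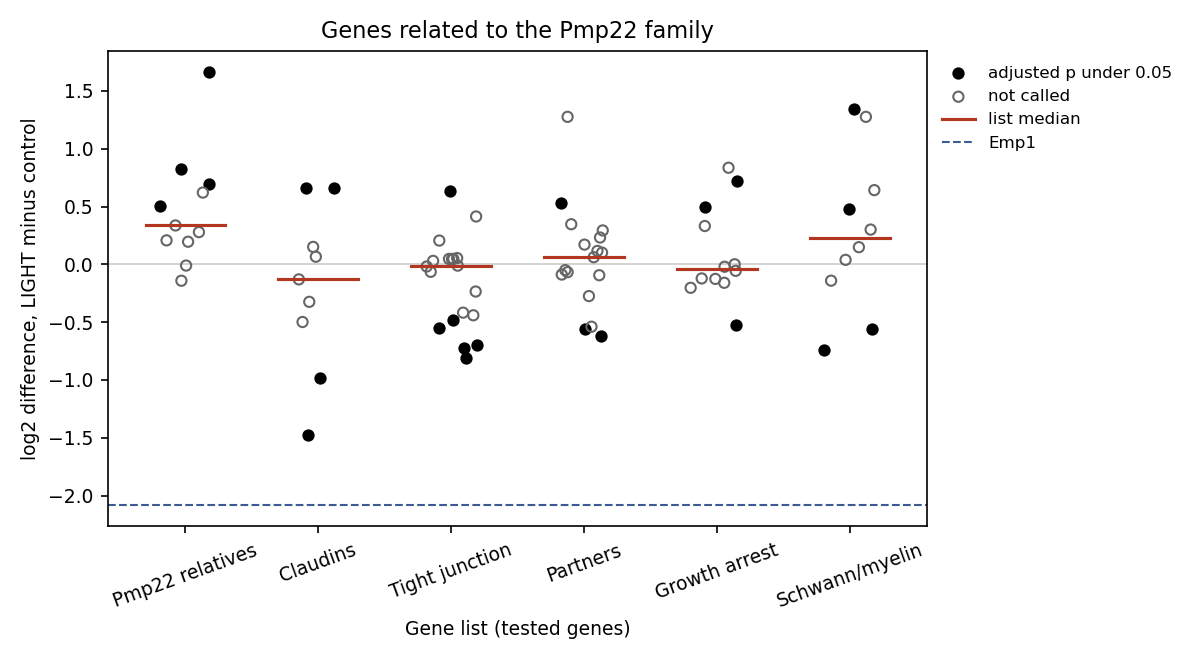
Log2 difference, LIGHT minus control, of each tested gene in the lists related to the PMP22 family, with filled points for a limma adjusted p under 0.05, open points for genes not called and a red bar for the list median. The dashed line at -2.08 is Emp1, which lies below every gene in these lists, the lowest being Cldn8 at -1.47.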

How the data were processed

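RNA from 6 tongue tumours was depleted of ribosomal RNA and sequenced, per the labels' protocols. HISAT, Bowtie2 and GRCm38.p6 are named in the submitters' processing notes, with no role; the quantifier is not given in the sources used here. As deposited by the authors, values are TPM, 1 column per library per the file headers, and each column sums to 1000000, so the depth is not known and counting intervals are not given. No 2 libraries were identical, and nothing ties a library to a separate animal, so a p-value reflects only how these samples vary, which may be technical.

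The 13167 genes reaching 1 TPM in 3 or more libraries entered the test, on log2(TPM + 1), which understates changes of low genes, with limma 3.58.1 in R 4.3.3 (eBayes with a trend), two-sided, with Benjamini-Hochberg adjustment over all tested genes and a threshold of 0.05. Members and lists were chosen with earlier results of these data known, so members carry no test. The named genes are the members, in each list up to 4 genes with the smallest p and the 2 most abundant, and the 10 genes most like Emp1 and 3 most like each other member. A few genes counted in the lists are not reported here by name. The test was tried on simulated data. Trimmed-mean factors were computed on the TPM, and sequences were aligned with Biopython 1.88. Alternatives were the pseudocounts 0.5 and 0.1, no filter, a filter at 5 TPM, trimmed-mean and quantile scaling, each library left out, a replicate block, 3 covariates, no trend and robust eBayes.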

Additional observations from a re-analysis of the deposited data

How the results depend on the processing

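The Emp1 difference lay between -2.21 and -1.83 over 14 other settings, and LIGHT minus control for its share of the family lay between -37.0 and -34.4 percentage points whichever library was left out. Leaving out 1 library gave -2.21 to -1.99 for Emp1, 0.04 to 0.22 for Emp2, 0.38 to 0.57 for Emp3 and -0.01 to 0.39 for Pmp22. The skeletal muscle covariate moved all members by more than the spread between replicates, to -1.83 for Emp1, 0.26 for Emp2, 0.26 for Emp3 and -0.21 for Pmp22; the cause was not tested. Trimmed-mean and quantile scaling shifted the median difference of all tested genes by -0.11 and -0.13, and gave 0.01 and 0.07 for Emp2, 0.34 and 0.36 for Emp3 and 0.02 and 0.04 for Pmp22. They moved the share of higher calls to 47.7% and 43.7%, against 76.6% as deposited.

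With the muscle covariate 783 genes passed in all, against 3037, and in the lists 2 relatives, 2 claudins, 0 tight junction genes, 0 partners, 0 growth arrest genes, 1 Schwann and myelin gene and 1 neighbour. With the red blood cell covariate 1183 genes passed, and in the lists 0 relatives, 2 claudins, 3 tight junction genes, 0 partners, 1 Schwann and myelin gene and 1 neighbour. The basal keratinocyte covariate gave 6 partners. Quantile normalization gave 1 relative and 1 neighbour. With a filter at 5 TPM fewer genes were tested, and 1 partner, 2 Schwann and myelin genes and 1 neighbour passed, while without a filter 6 neighbours did. Leaving out 1 library gave 1459 to 2661 genes in all, 1 to 4 relatives, 3 to 4 claudins, 4 to 8 tight junction genes, 0 to 3 partners, 2 to 4 growth arrest genes, 2 to 5 Schwann and myelin genes and 1 to 3 neighbours.

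Whether the replicate numbers pair the samples is not settled. The deviations of same-numbered libraries correlated at 0.37, 0.24 and 0.01 over genes, and not every library correlated best with its own number. With the replicate number as a block 3232 genes passed in all, against 3037 without it. With the replicate block 2 relatives passed, against 4, and no other count moved by over 1.5 times. Depth is unknown, so values under 1 TPM cannot be judged against counting error.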
